A study of Mus musculus with 2 samples.

Results

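Of 9 listed homeostatic microglia genes, 8 were analysed here, in single-cell RNA-seq of hippocampus from aged C57BL/6 mice. They were taken by gene symbol from the 19059 genes counted, and are P2ry12, P2ry13, Tmem119, Csf1r, Siglech, Selplg, Sall1 and Gpr34; the other listed gene, Cx3cr1, was not analysed here. The control library came from the pooled hippocampi of 4 mice on standard chow. The tomatidine library came from 4 mice fed chow with 0.05% tomatidine, a compound of the tomato plant. In both groups the mice were 21 months old at the start and were treated for 3 months. With 1 pooled library per group, there was no replicate and no test between groups, and the mice of a pool cannot be told apart. All intervals are at 95% and cover counting error only, not the differences between mice.

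Microglia are the resident macrophages of the brain. In the healthy brain they survey the tissue with fine processes and express a set of receptors and surface proteins that sets them apart from other macrophages, the homeostatic signature. P2ry12 and P2ry13 are G protein-coupled receptors for adenine nucleotides, and P2ry12 guides microglial processes to sites of damage. Csf1r is the receptor for Csf1 and Il34, on which microglial survival depends. Siglech is a sialic acid-binding lectin that signals through the adaptor Tyrobp, and Selplg carries the ligand of P-selectin. Gpr34 is a receptor for lysophosphatidylserine, Tmem119 is a transmembrane protein widely used as a microglial marker, and Sall1 is a zinc finger transcription factor that helps to keep microglial identity. When microglia become activated around damage or plaques, they are known to lower much of this set and to raise genes such as Apoe, Cst7, Itgax and Lpl.

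Coordinates are those of mm10 (GRCm38; GENCODE annotation). P2ry12 (ENSMUSG00000036353; chr3:59216272-59262871) and P2ry13 (ENSMUSG00000036362; chr3:59207892-59210882) are neighbours on the minus strand, 5389 bases apart, and both lie within Med12l, which runs on the plus strand. Tmem119 (ENSMUSG00000054675; chr5:113793729-113800516) and Selplg (ENSMUSG00000048163; chr5:113818536-113832644) are both on the minus strand and are 18019 bases apart. Siglech (ENSMUSG00000051504; chr7:55768178-55778925) is on the plus strand and Sall1 (ENSMUSG00000031665; chr8:89027235-89044162) on the minus strand. Gpr34 (ENSMUSG00000040229; chrX:13632089-13640858, plus strand) lies within Cask, which runs on the minus strand. RefSeq promoter windows (GRCm38.p6) were matched for 4 of the 8 genes. The 250 bases upstream of the start are shown, 5′ to 3′ on the gene's strand, for the neighbouring pair and for Siglech. In activated cells (described further on) the levels of all 8 genes were lower, so this does not set these 3 apart. For Csf1r and Gpr34 of the control library the difference was within counting error. Capitals mark GAGGAA or GGAAGT on either strand, letters found in sites of the myeloid factor PU.1 (Spi1) and of other ETS factors.
P2ry12 (chr3:59262986-59263235, minus strand): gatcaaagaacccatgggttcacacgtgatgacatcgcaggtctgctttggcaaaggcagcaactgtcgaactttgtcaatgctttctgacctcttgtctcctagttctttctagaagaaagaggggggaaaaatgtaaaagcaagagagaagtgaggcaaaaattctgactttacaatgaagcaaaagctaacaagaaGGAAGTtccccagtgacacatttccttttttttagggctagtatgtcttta
P2ry13 (chr3:59210883-59211132, minus strand): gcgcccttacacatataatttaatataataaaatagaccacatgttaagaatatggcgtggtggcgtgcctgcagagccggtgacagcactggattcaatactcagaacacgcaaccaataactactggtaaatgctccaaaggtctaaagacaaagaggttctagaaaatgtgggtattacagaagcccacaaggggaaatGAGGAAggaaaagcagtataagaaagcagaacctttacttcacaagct
Siglech (chr7:55767934-55768183, plus strand): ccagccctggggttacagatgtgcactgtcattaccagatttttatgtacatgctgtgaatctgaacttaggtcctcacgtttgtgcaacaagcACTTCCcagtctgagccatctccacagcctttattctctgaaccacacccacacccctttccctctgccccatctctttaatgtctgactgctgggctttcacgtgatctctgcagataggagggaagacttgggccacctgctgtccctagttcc
GGAAGT begins 51 bases before the P2ry12 start, and GAGGAA begins 48 bases before the P2ry13 start. In the Siglech window the complement of GGAAGT begins 156 bases before the start. The 2 motifs share the letters GGAA and can overlap. Of 32851 promoter windows of this length, 23.3% hold GAGGAA and 19.7% hold GGAAGT, so a match is common and describes the letters only. The 3 windows listed for Sall1 hold GGAAGT once and GAGGAA in none.

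The matrices held 279525565 UMIs (unique molecular identifiers, tags that count single molecules) for control and 259059908 for tomatidine. After filtering, 15115 control and 14502 tomatidine cells were clustered and named from marker genes, without use of the 8 genes or of Cst7 and Itgax. Microglia-like cells numbered 866 and 775, with median depths of 3070 and 2839 UMIs per cell, and 15 of 15 measured microglia markers were raised in both clusters that formed the class. These names come from the markers and need not match those the study gave. Some other classes differed in size between the libraries, with 354 control and 33 tomatidine choroid plexus-like cells. A subcortical neuron-like cluster with Pou4f2 and Barhl1 among its top genes held 181 control and 670 tomatidine cells. What part such differences in cell content had in the ratios between the libraries was not tested. A further cluster, with 115 control and 84 tomatidine cells, had 7 of 8 oligodendrocyte markers raised beside the microglia markers and was kept out of the class. The libraries share 292 cell barcodes, of which 13 control and 12 tomatidine barcodes belong to microglia-like cells. Without them, the median log2 ratios given further on were −0.13 between the libraries, and −0.48 and −0.61 between activated and other cells of the control and tomatidine library. CPM is the usual scaling of a gene's UMIs to the summed UMIs of the cells named. Csf1r (ENSMUSG00000024621; chr18:61100598-61132149, plus strand) overlaps Hmgxb3, which runs on the minus strand. The number of probes can differ between genes, so the levels of different genes were not compared.

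All 8 genes were within 1.5-fold between the libraries in microglia-like cells. P2ry12 had 9112 UMIs in control and 6814 in tomatidine cells, or 2927 CPM (2868 to 2988) and 2475 CPM (2417 to 2535), a log2 ratio of −0.24 (−0.29 to −0.20). Its neighbour P2ry13 had 846 CPM (814 to 879) and 804 CPM (771 to 838), with a log2 ratio of −0.07 (−0.16 to 0.01). The intervals of P2ry12 do not overlap, while those of P2ry13 do. Csf1r had 3804 CPM (3736 to 3873) and 3465 CPM (3396 to 3535), with a log2 ratio of −0.13 (−0.17 to −0.10). Siglech had 1292 CPM (1252 to 1332) and 1132 CPM (1093 to 1173), with a log2 ratio of −0.19 (−0.26 to −0.12). Selplg had 2158 CPM (2106 to 2210) and 2005 CPM (1953 to 2059), with a log2 ratio of −0.11 (−0.16 to −0.05). These 3 surface proteins were each lower in the tomatidine library by more than counting error. Gpr34 had 848 CPM (816 to 881) and 720 CPM (688 to 752), with a log2 ratio of −0.24 (−0.32 to −0.15). Tmem119 went the other way, with 1740 CPM (1694 to 1787) in control and 1830 CPM (1779 to 1881) in tomatidine cells and a log2 ratio of 0.07 (0.02 to 0.13). For the transcription factor Sall1, with 868 CPM (836 to 902) and 829 CPM (796 to 864), no difference was detectable at this depth (−0.07, −0.15 to 0.01).

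Thus 5 of the 8 genes were lower and 1 was higher in the tomatidine library by more than counting error. The intervals of P2ry13 and Sall1 included 0. The share of all genes with intervals off 0 is not given here, so these counts have no background. The median log2 ratio of the 8 genes was −0.12, and 0 of 8 were past 1.5-fold. For the 15 microglia markers the median was also −0.12. Of 12051 genes with at least 20 UMIs, 8.56% were past 1.5-fold in either direction (2.25% lower and 6.31% higher), with a median of 0.04. Among the 83 genes with at least as many UMIs as the lowest of the 8 genes (4621), 1.20% were past it, and their median of −0.10 was close to that of the homeostatic genes. The order and size of these ratios depended on which microglia-like cells were counted. In the deeper cluster alone the median was −0.02, with −0.12 (−0.17 to −0.08) for P2ry12, −0.14 (−0.23 to −0.05) for Gpr34 and 0.17 (0.11 to 0.23) for Tmem119. Siglech was at −0.11 (−0.18 to −0.03) there, and the intervals of P2ry13, Csf1r, Selplg and Sall1 included 0. Scaled to the UMIs of the microglia markers in place of all UMIs, the median was 0.04. On that scale Tmem119 (0.23), P2ry13 (0.08), Csf1r (0.02), Selplg (0.05) and Sall1 (0.09) were above 0. P2ry12 (−0.08), Siglech (−0.03) and Gpr34 (−0.08) stayed below it.

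**Figure D1:**
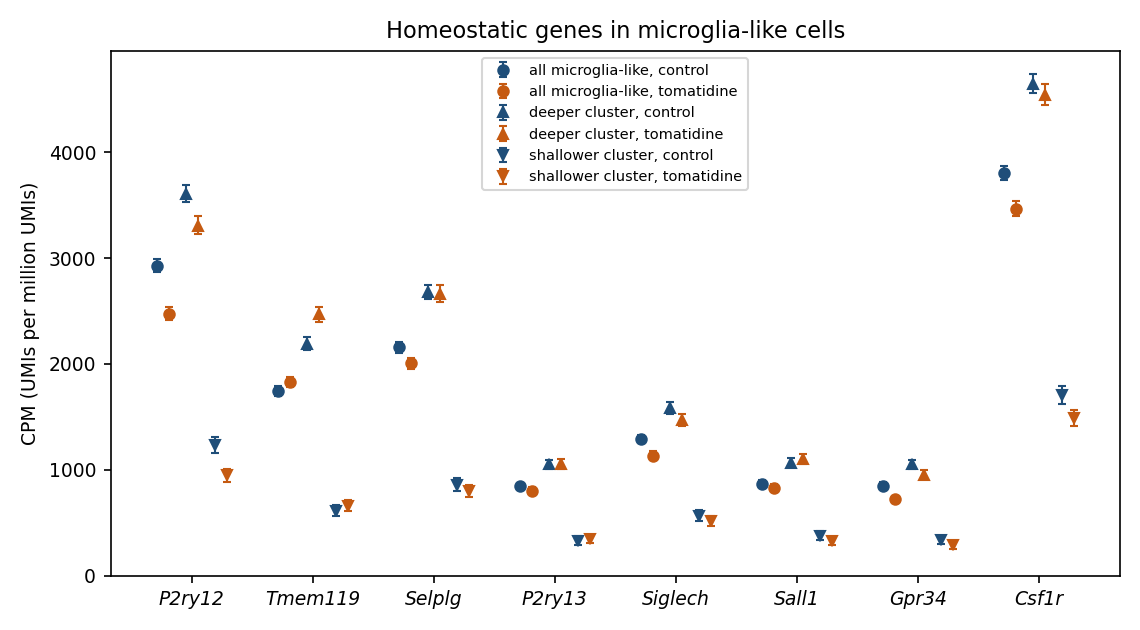
CPM of each gene in microglia-like cells and in their deeper and shallower cluster, in the control (blue) and tomatidine (orange) library; bars are exact Poisson intervals and the axis starts at 0. The libraries lie close together, as for P2ry12 with 2927 and 2475 CPM, while the shallower cluster lies well below the deeper one for every gene.

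The 2 microglia-like clusters differed far more than the libraries. The deeper cluster held 527 control and 454 tomatidine cells with medians of 3874 and 3509.5 UMIs, and the shallower 339 and 321 cells with medians of 1421 and 1401 UMIs. P2ry12 had 3606 CPM in deeper and 1234 CPM in shallower control cells, and 3307 and 947 CPM in tomatidine cells. Tmem119 had 2191 and 614 CPM in control cells, and 2468 and 657 CPM in tomatidine cells. Over the 8 genes, the log2 ratio of the shallower over the deeper cluster lay between −1.83 and −1.44 in control and between −1.91 and −1.51 in tomatidine cells. The 15 microglia markers had ratios between −1.42 and −0.90 in control and between −1.58 and −0.96 in tomatidine cells. The homeostatic genes were thus the lower of the 2 groups (medians −1.60 against −1.24, and −1.74 against −1.36). The markers were used to name both clusters and the homeostatic genes were not, and what part this had in the contrast was not tested. RNA of other cells moved the other way. Mbp, a myelin gene, had 787 CPM in deeper and 2479 CPM in shallower control cells, and Snap25, a neuronal gene, 510 and 1340 CPM. What part this RNA had in the low levels was not tested, and fewer microglial molecules per cell and more foreign ones cannot be told apart in a CPM.

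Between the libraries, the cluster with oligodendrocyte markers and the border macrophage-like cells gave other ratios. In the former all 8 genes were higher in the tomatidine library, from 0.24 (−0.02 to 0.50) for P2ry13 to 0.62 (0.44 to 0.80) for Tmem119. P2ry12 had 799 CPM there in control and 1156 CPM in tomatidine cells. The 15 microglia markers summed to 16388 and 19305 CPM in this cluster and the 8 oligodendrocyte markers to 45716 and 38251 CPM. Their part in these ratios was not tested. Border macrophage-like cells, 157 control and 135 tomatidine cells that also express antigen presentation and lymphocyte genes, had more Siglech (149 and 268 CPM; log2 0.85, 0.47 to 1.24) and less Selplg (408 and 279 CPM; −0.55, −0.85 to −0.25) in the tomatidine library.

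**Figure D2:**
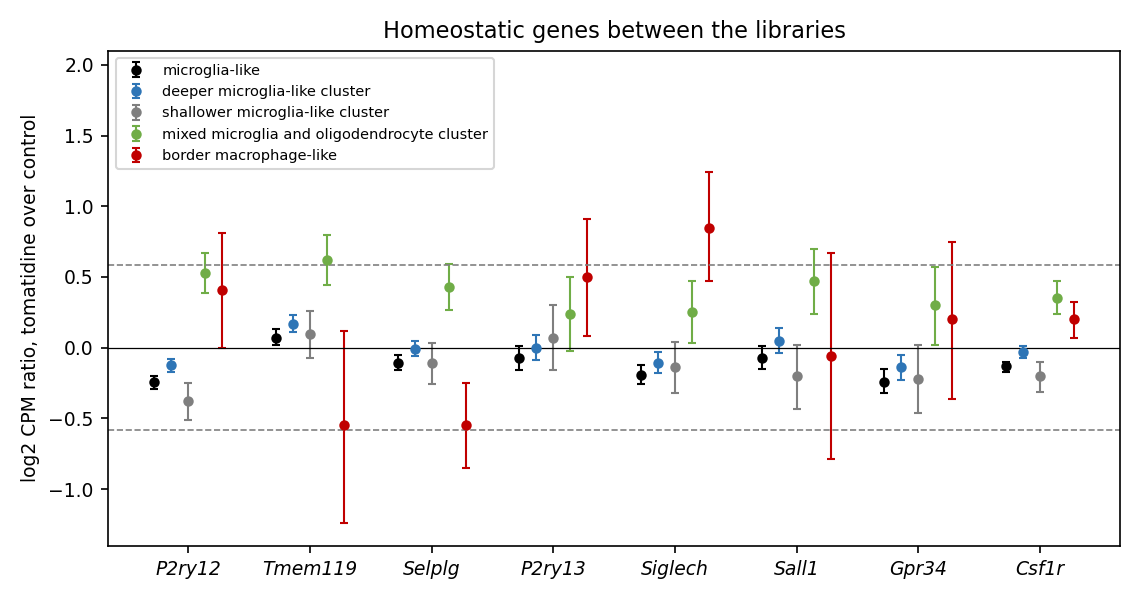
Log2 CPM ratio of tomatidine over control for each gene in 5 sets of cells; bars are exact binomial counting intervals and dashed lines mark 1.5-fold. Microglia-like ratios lie between −0.24 and 0.07, and those of the cluster with oligodendrocyte markers lie above 0.

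Microglia-like cells with 2 or more UMIs of Cst7 and Itgax together are called activated here. Cst7 encodes a cystatin and Itgax the integrin CD11c; Clec7a, a further gene of this split, was not analysed here. Activated cells numbered 82 of 866 in the control library (9.47%, exact binomial interval 7.6 to 11.6) and 70 of 775 in the tomatidine library (9.03%, 7.11 to 11.3). Tomatidine minus control was −0.437 percentage points (−3.24 to 2.41 by Newcombe's method). Thinned to 1500 UMIs per cell, which left out 187 control and 181 tomatidine cells, the expected shares were 3.92% and 4.68%. A difference in the share was not detectable at this depth. Activated cells were deeper, with medians of 4112.5 UMIs against 2918.5 in other control cells, and 4270.5 against 2736 in tomatidine cells. The 5 deepest activated cells held 17.6% of the UMIs of activated cells in the control and 21.7% in the tomatidine library. The counting intervals do not cover such differences between cells.

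All 8 ratios of activated over other cells were below 0 in both libraries. Counting intervals excluded 0 for 6 of 8 genes in control and 8 of 8 in tomatidine cells. The share of all genes with such intervals is not given here, so these counts have no background. In control, ratios below 0 were found for Csf1r in 17 of 24 alternative settings, for Gpr34 in 19 and for Sall1 in 22. P2ry12 had 1982 CPM in activated and 3072 CPM in other control cells (log2 ratio −0.63, −0.74 to −0.53). In the tomatidine library it had 1363 and 2636 CPM (−0.95, −1.09 to −0.82), the lowest ratio of the 8 genes in each library. Tmem119 had 1301 and 1808 CPM in control cells (−0.47, −0.61 to −0.35) and 1151 and 1928 CPM in tomatidine cells (−0.74, −0.90 to −0.60). For Selplg the levels were 1579 and 2246 CPM in control cells (−0.51, −0.63 to −0.39) and 1260 and 2113 CPM in tomatidine cells (−0.75, −0.89 to −0.61). P2ry13 and Siglech lay close to these, at −0.51 (−0.70 to −0.32) and −0.47 (−0.62 to −0.32) in control, and at −0.58 (−0.80 to −0.36) and −0.62 (−0.81 to −0.44) in tomatidine cells. These 5 genes are nucleotide receptors and surface proteins. Sall1 had ratios of −0.22 (−0.40 to −0.05) and −0.32 (−0.52 to −0.13). Gpr34 had ratios of −0.08 (−0.25 to 0.08) and −0.32 (−0.54 to −0.11). Csf1r, the survival receptor, had 3743 CPM in activated and 3813 CPM in other control cells (−0.03, −0.10 to 0.05), and 2941 and 3541 CPM in tomatidine cells (−0.27, −0.36 to −0.17). Over all microglia-like cells, the Csf1r ratio was the closest to 0 in each library. Its intervals do not overlap those of P2ry12, Tmem119, Selplg and Siglech. Within the control clusters, Csf1r was lower in activated cells. It was at −0.17 (−0.25 to −0.09) in the deeper cluster and −0.73 (−1.12 to −0.37) in the shallower one, with 11 activated cells. Gpr34 was at −0.28 (−0.45 to −0.10) and −0.19 (−0.97 to 0.49) in these clusters.

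At least 1.5-fold lower in activated cells was 1 of 8 genes in the control library (P2ry12) and 4 of 8 in the tomatidine library (P2ry12, Tmem119, Selplg and Siglech). Of all genes with at least 20 UMIs, 20% of 11203 were that much lower in the control and 20% of 11249 in the tomatidine library. Many of these have few UMIs. Among genes with at least as many UMIs as the lowest of the 8 genes, 5.33% of 75 were lower in the control library and 17.9% of 95 in the tomatidine library. The medians were −0.47 for the homeostatic and 0.06 for these 75 genes in control, and −0.60 and −0.17 in tomatidine cells. The control count depended on the cells. The deeper cluster holds 71 of the 82 activated control and 53 of the 70 activated tomatidine cells. In it alone, 5 of 8 genes were past 1.5-fold in each library. There P2ry12 was at −0.77 (−0.88 to −0.66) in control and −1.03 (−1.17 to −0.89) in tomatidine cells. The share of all genes past this fold in that cluster is not given here, so these counts have no background. With 2 or more UMIs of the split genes, each ratio was further from 0 in the tomatidine library. The difference between the libraries was −0.32 (−0.49 to −0.15) for P2ry12, −0.27 (−0.47 to −0.07) for Tmem119, −0.24 (−0.36 to −0.12) for Csf1r and −0.24 (−0.42 to −0.06) for Selplg, while the intervals for P2ry13, Siglech, Sall1 and Gpr34 included 0. This order depended on the threshold. In cells with 4 or more such UMIs against cells with 0, all 8 ratios were further from 0 in the control library, as for P2ry12 (−1.68, −1.92 to −1.45, against −1.15, −1.36 to −0.96) and Tmem119 (−1.76, −2.09 to −1.45, against −0.88, −1.09 to −0.67).

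**Figure D3:**
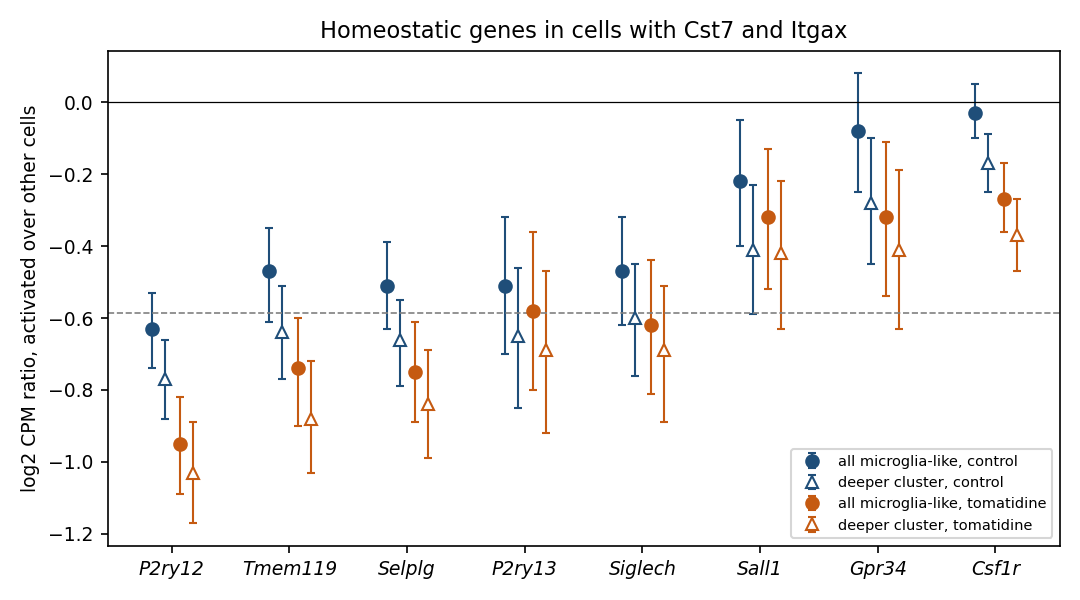
Log2 CPM ratio of activated over other microglia-like cells for each gene and library, over all microglia-like cells (circles) and in the deeper cluster (open triangles); bars are counting intervals and the dashed line marks 1.5-fold lower. P2ry12 lies lowest, at −0.63 and −0.95, and Csf1r nearest 0, at −0.03 and −0.27.

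Of 20 activation genes not used for the split, 19 were at least 1.5-fold higher in activated cells of each library, with medians of 1.48 in control and 1.54 in tomatidine cells. Of all genes with at least 20 UMIs, 8.70% were that much higher in control and 9.33% in tomatidine cells. Apoe, a lipid carrier, had 22130 CPM in activated and 7455 CPM in other control cells, and 26651 and 5705 CPM in tomatidine cells. Spp1 (osteopontin) had the highest ratio in control (4.47, 4.0 to 4.95) and Lpl (lipoprotein lipase) in tomatidine cells (4.2, 3.87 to 4.55), while the iron store gene Fth1 had the lowest (0.31 and 0.37). The 15 markers used to name microglia had medians of 0.35 and 0.38, with the adaptor Tyrobp highest (0.84 and 1.06), Itgam lowest in control (−0.17) and Inpp5d lowest in tomatidine cells (−0.27). Of 19 other homeostatic or microglia-enriched genes, 2 were at least 1.5-fold lower and 0 higher in control, and 4 lower and 1 higher in tomatidine cells, with medians of −0.05 and −0.34. The lens crystallin gene Crybb1 was the lowest in both (−1.55, −1.98 to −1.14, and −1.59, −2.13 to −1.10), and the lipid sensor Trem2 the highest (0.53 and 0.69). The fructose carrier Slc2a5 had 220 CPM in activated and 524 CPM in other control cells.

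Among 14 microglial transcription factors, 1 was 1.5-fold higher and 0 lower in activated control cells, and 0 higher and 1 lower in tomatidine cells, with medians of 0.06 and −0.16. Maf was the lowest in both libraries (−0.50 and −0.60), Runx1 the highest in control (0.60) and Spi1, the gene of PU.1, in tomatidine cells (0.38, 0.01 to 0.73; 0.37, 0.07 to 0.66 in control). Of 5 measured purine receptors other than P2ry12 and P2ry13, 1 was higher in each library, the ion channel gene P2rx4 (0.90, 0.52 to 1.28, and 1.17, 0.80 to 1.53). The lowest ratios in this group were those of Adora3 in control (−0.04) and Adora1 in tomatidine cells (−0.55, −1.23 to 0.07). Of 11 measured ligands, adaptors and upkeep genes, 2 were higher in each library, and 1 was lower in control and 2 in tomatidine cells. Csf1, a ligand of Csf1r, had 99.3 CPM in activated and 17.4 CPM in other control cells, and 100 and 32.4 CPM in tomatidine cells. Il34, the other ligand, rests on 3 and 6 UMIs in activated cells (−1.71, −4.02 to −0.09, and −0.63, −2.13 to 0.57). The nucleotidase gene Entpd1 was the lowest of this list in tomatidine cells (−0.68, −0.98 to −0.40). Tgfb1 and its receptors Tgfbr1 and Tgfbr2 had ratios between −0.06 and 0.25 in control and between −0.01 and 0.21 in tomatidine cells. Cx3cl1 had −0.35 (−0.77 to 0.05) and 0.39 (0.06 to 0.71). Of genes for selectins that bind Selplg, Selp and Sele had 0 UMIs in microglia-like cells. A floor of 3 UMIs would be 0.964 CPM in the control and 1.09 CPM in the tomatidine library.

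Markers of other cells moved with the split in part. Astrocyte markers summed to 1311 CPM in activated and 3595 CPM in other control cells, with 8 of 8 at least 1.5-fold lower, and to 2060 and 4136 CPM in tomatidine cells, with 7 of 8 lower. Oligodendrocyte markers summed to 4448 and 3632 CPM in control, with 5 of 8 higher, and to 2361 and 3512 CPM in tomatidine cells, with 3 of 8 lower. The 8 excitatory neuron markers summed to 1199 and 2124 CPM in control and 1785 and 2038 CPM in tomatidine cells. The 8 border macrophage markers summed to 21.8 and 14.8 CPM in control and to 63.1 and 18.7 CPM in tomatidine cells. Of these, Pf4 and Lyve1 had 0 UMIs in activated cells of both libraries, and 18 UMIs of Ms4a7 made up most of the tomatidine sum. Without cells holding 2 or more UMIs of border macrophage markers, 2 and 5 of 8 homeostatic genes were at least 1.5-fold lower. The share of all genes in this setting is not given here. Of 11 early response genes, which handling of tissue can induce, 5 were higher in activated control cells, with Ier2 highest (2.60) and Hspa1a lowest (−0.61, from 2 UMIs in activated cells); of 9 in tomatidine cells 1 was higher, Atf3 (2.11), and 2 were lower, with Zfp36 lowest (−1.19). Their part in the result was not tested.

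The levels were also followed over the number of Cst7 and Itgax UMIs in a cell. In the control library, P2ry12 had 3156 CPM in 680 cells with 0 such UMIs, 2601 in 104 cells with 1, 2860 in 37 cells with 2, 2079 in 20 cells with 3 and 984 in 25 cells with 4 or more. All 8 genes of this library had their lowest level in the last group. There Tmem119 had 547 CPM against 1858 in cells with 0, Selplg 730 against 2322, Siglech 508 against 1381 and P2ry13 358 against 909. The cells with 4 or more thus had P2ry12 3.21 times, Tmem119 3.39 times and Selplg 3.18 times lower than cells with 0, but Gpr34 1.32 times and Csf1r 1.27 times. In the tomatidine library, P2ry12 had 2690 CPM in 624 cells with 0 such UMIs, 2243 in 81 cells with 1, 1923 in 28 cells with 2, 1050 in 16 cells with 3 and 1209 in 26 cells with 4 or more. All 8 genes of this library had their lowest level in the 16 cells with 3 UMIs, as for Selplg (788 CPM), Siglech (512), Csf1r (2245) and Gpr34 (433). Against cells with 0, those with 4 or more had P2ry12 2.23 times, Selplg 1.94 times and Csf1r 1.13 times lower. Apoe had 5962 CPM in control cells with 0 and 33858 CPM in those with 4 or more, and 5231 and 30509 CPM in tomatidine cells. Depth moved with the groups, from a median of 2810 UMIs in cells with 0 to 4966 in those with 4 or more in control, and from 2731.5 to 5851.5 in tomatidine cells, and its part in these levels was not tested.

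**Figure D4:**
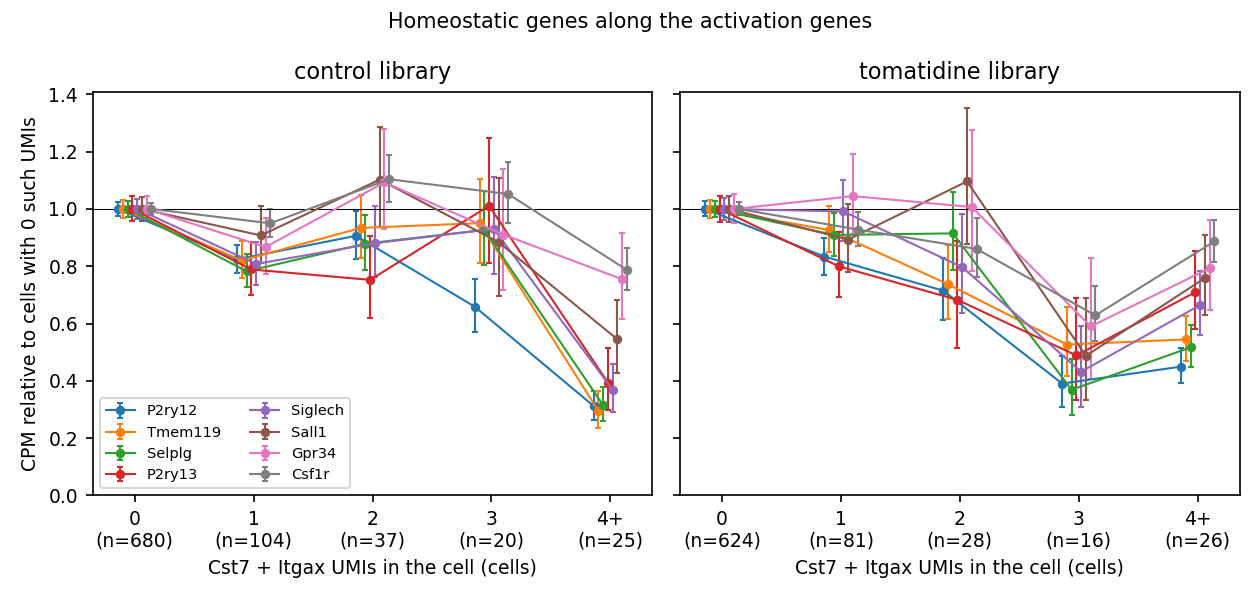
CPM of each gene relative to cells with 0 UMIs of Cst7 and Itgax, by the number of such UMIs in the cell, for the control (left) and tomatidine (right) library; bars are Poisson intervals and n is the number of cells. In control, P2ry12, Tmem119, Selplg, P2ry13 and Siglech are low in cells with 4 or more, where Csf1r and Gpr34 stay nearer 1.

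Per cell, at least 1 UMI of P2ry12 was found in 85.2% (82.7 to 87.5) of control and 80.3% (77.3 to 83.0) of tomatidine microglia-like cells. Csf1r was found in 93.2% (91.3 to 94.8) and 90.5% (88.2 to 92.4). At 1500 UMIs per cell the expected shares were 89.1% and 85.5% for P2ry12, and 95.7% and 94.0% for Csf1r. The other genes ranged from 59.3% to 84.8% at this depth. In excitatory neuron-like cells, with median depths of 16410 and 15564 UMIs, P2ry12 was found in 9.37% and 9.15% of cells, or 1.35% and 1.27% when thinned. All 8 genes were found together in 395 of 784 other control cells and 48 of 82 activated ones. Thinned to 1500 UMIs, activated cells held on average 5.75 of the 8 genes and other cells 6.24 in control, and 5.01 and 6.14 in the tomatidine library.

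Outside the microglia-like cells the 8 genes were low in most classes, at levels that differed between classes. Summed over the 8 genes and all cells but the microglia-like, mixed and border macrophage-like ones, the level was 0.550% (0.542 to 0.559) of that in microglia-like cells in control and 0.619% (0.610 to 0.629) in the tomatidine library. In excitatory neuron-like cells, P2ry12 had 8.0 and 8.32 CPM, Csf1r 8.45 and 9.78 CPM and Siglech 3.20 and 3.34 CPM. P2ry12 was at 0.273% of its microglial level there in control, and at 1.60% in astrocyte-like cells. Counted per P2ry12 UMI, the genes other than Sall1 were in excitatory neuron-like cells between 0.661 times (0.556 to 0.784, P2ry13) and 1.09 times (0.95 to 1.26, Gpr34) their microglial ratio in control, and between 0.696 times (0.587 to 0.825, P2ry13) and 1.16 times (1.0 to 1.35, Gpr34) in the tomatidine library. The intervals of P2ry13, Tmem119, Csf1r and Selplg lay below 1 in both. In astrocyte-like cells Tmem119 was at 0.483 times (0.403 to 0.578) and 0.602 times (0.520 to 0.697). The microglial proportions were thus not kept, and the part of free RNA in these levels was not tested. In interneuron-like cells P2ry12 had 12.9 CPM in control and 28.9 CPM in the tomatidine library, although it was found in a similar share of cells (13.3% and 12.1%).

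Sall1 was seen in several glial classes and in meningeal fibroblast-like cells. It had 95.5 and 95.8 CPM in oligodendrocyte-like cells, 84.3 and 77.3 in oligodendrocyte precursor-like (OPC-like) cells and 66.9 and 62.1 in astrocyte-like cells of the control and tomatidine library, against 868 and 829 in microglia-like cells. In oligodendrocyte-like cells P2ry12 had 12.6 and 13.9 CPM, so Sall1 was 7.58 and 6.91 UMIs per P2ry12 UMI. In microglia-like cells it was 0.297 and 0.335. The ratio was thus 25.6 times (22.2 to 29.5) and 20.6 times (17.6 to 24.2) that of microglia-like cells, and 8.79 times (6.94 to 11.1) and 9.34 times (6.85 to 12.7) in OPC-like cells. Meningeal fibroblast-like cells had 50.5 and 87.8 CPM of Sall1, or 5.42 times (3.74 to 7.85) and 11.3 times (8.38 to 15.1) the microglial ratio. In excitatory neuron-like cells it was 1.91 times (1.69 to 2.15) and 1.95 times (1.73 to 2.21). At least 1 Sall1 UMI was found in 34.8% of 3004 control and 33.1% of 2338 tomatidine oligodendrocyte-like cells (11.8% and 11.7% when thinned to 1500 UMIs), against 6.81% and 7.45% of excitatory neuron-like cells (0.868% and 0.833%). Median depths were 5287 and 4813 UMIs in oligodendrocyte-like cells, below those of the neurons. In all, 59.2% of the Sall1 UMIs of the control library and 62.0% of the tomatidine library lay outside the microglia-like, mixed and border macrophage-like clusters, and 35.9% and 33.0% in microglia-like cells. For the other 7 genes, 63.3% to 74.4% lay in microglia-like cells. Ependymal-like cells, of which there were 35 and 14, had 44.1 CPM from 23 Sall1 UMIs in control and 120 CPM from 28 UMIs in the tomatidine library.

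Sall1 also differed among the clusters of a class. The 2 oligodendrocyte-like clusters had 107 and 75.5 CPM in control and 109 and 67.4 CPM in the tomatidine library. P2ry12 was higher in the second (9.95 and 17.1 CPM in control), so the 2 genes went opposite ways. Astrocyte-like clusters ranged from 46.1 to 99.8 CPM of Sall1 in control and from 42.5 to 104 CPM in tomatidine cells.

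Tmem119 was also seen in meningeal fibroblast-like cells, with 125 CPM in 284 control and 86.5 CPM in 526 tomatidine cells. That is 6.69 times (4.84 to 9.26) and 5.03 times (3.75 to 6.76) as many UMIs per P2ry12 UMI as in microglia-like cells. It was found in 29.6% and 23.4% of these cells (16.6% and 11.5% when thinned), against 3.16% and 3.53% of excitatory neuron-like cells. Csf1r, which is known from all macrophages, had 1713 CPM in control and 1964 CPM in tomatidine border macrophage-like cells, or 8.44 times (6.88 to 10.3) and 6.78 times (5.55 to 8.27) the microglial ratio to P2ry12. P2ry12 had 156 and 207 CPM there and Tmem119 83.5 and 57.0 CPM. As a percent of the microglial level, the 8 genes lay in border macrophage-like cells between 4.80% (Tmem119) and 45.0% (Csf1r) in control and between 3.11% and 56.7% in the tomatidine library. P2ry13 was at 17.0% and 25.3%, Selplg at 18.9% and 13.9%, and Siglech at 11.5% and 23.6%. Each of the 8 genes had its highest level of all named classes in microglia-like cells, in both libraries.

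**Figure D5:**
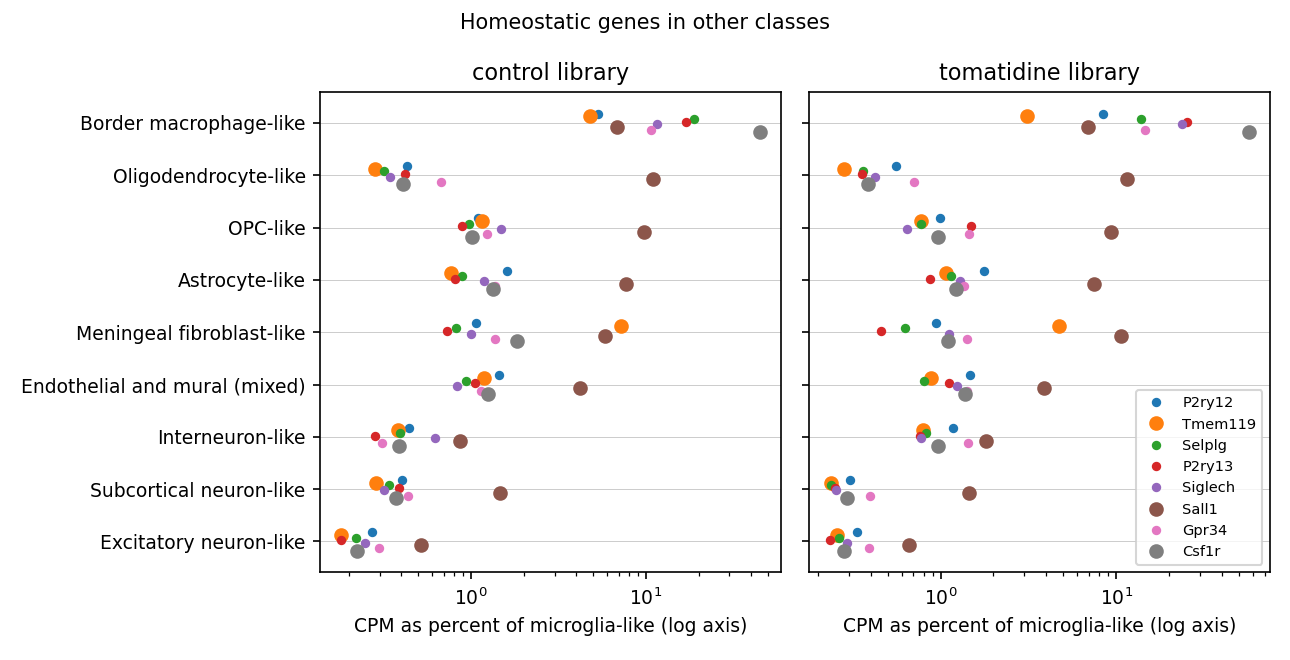
CPM of each gene in 9 other classes as a percent of its CPM in microglia-like cells, on a log axis, for both libraries. Of these classes, border macrophage-like cells have the highest level of every gene but Sall1 and Tmem119, and Csf1r lies highest there. Elsewhere Sall1 lies apart in oligodendrocyte-like, OPC-like, astrocyte-like and meningeal fibroblast-like cells, and Tmem119 in meningeal fibroblast-like cells.

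Among the 10 genes whose levels over 12 named classes and 2 libraries (24 values, log2 of CPM plus 1) were most like the mean of the 8, of 9373 genes, were Ly86, Lag3, Hhex, Ctss, C1qb, Gna15, Csf3r and Tmem173, with Pearson r from 0.978 to 0.970. The values share the 2 libraries and their free RNA, and Ly86, Ctss and C1qb helped to name the class. Of the 8 genes themselves, Gpr34 was closest to the mean (0.993) and Sall1 farthest (0.708). The 8 named here did not move as a group in activated cells. Gna15, a G protein subunit, had −0.24 and −0.42 in control and tomatidine cells, whereas Lag3, a checkpoint receptor, had 0.71 and 0.69, and Ctss, the protease cathepsin S, 0.45 and 0.51. Between the libraries in microglia-like cells, their ratios ran from −0.28 (−0.30 to −0.25) for Ctss to −0.01 (−0.17 to 0.15) for Gna15. The intervals of Gna15, Hhex and Tmem173 included 0.

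Other gene groups showed few differences past 1.5-fold between the libraries in microglia-like cells. None of 19 other homeostatic or microglia-enriched genes was past it (median −0.15), with Slc2a5 the lowest (−0.35, −0.47 to −0.24) and Lpcat2 the highest (0.09). The list of transcription factors had 1 of 14 higher, Tal1 (0.64, 0.19 to 1.09), and Spi1 the lowest (−0.31, −0.48 to −0.14), with a median of −0.18. Of the ligand list, 0 of 11 were past it, with Csf1 the highest (0.54, 0.12 to 0.96) and Tgfbr1 the lowest (−0.25, −0.31 to −0.18). Cx3cl1 had 0.31 (0.14 to 0.48), Il34 0.24 (−0.26 to 0.75), Tyrobp −0.14 (−0.19 to −0.08), Tgfb1 0.04 (−0.10 to 0.18) and Tgfbr2 −0.07 (−0.16 to 0.02). Among purine receptors 0 of 6 were past it, from −0.16 for Adora3 to 0.46 for P2ry2. Of the 20 activation genes, 3 were lower, against 2.25% of all genes, with the chemokine gene Ccl3 the lowest (104 and 44.7 CPM; −1.22, −1.54 to −0.92). Of 11 early response genes 2 were lower, with Ier2 the lowest (−0.82, −1.55 to −0.13) and Atf3 the highest (0.11). Astrocyte markers summed to 3292 CPM in control and 3873 CPM in tomatidine microglia-like cells, and oligodendrocyte markers to 3740 and 3367 CPM. Border macrophage markers summed to 15.7 and 24.3 CPM, and monocyte or neutrophil markers to 6.43 and 16.3 CPM. Their part in the differences between the libraries was not tested.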

How the data were processed

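Single-cell RNA-seq of hippocampus was measured in 1 control and 1 tomatidine library, each from 4 pooled mice. The authors fixed and dissociated the tissue, used a probe-based kit, aligned reads to mm10 and deposited counts, which are UMIs for each gene in each cell, not normalized. The submitters' processing notes name Cell Ranger 8.0.0 and the file headers 7.1.0. Only genes with probes are counted, so a level depends on a gene's probes as well as its RNA.

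Kept were cells that had 500 UMIs or more, over 250 genes, less than 20% of UMIs from mitochondrial genes and log10 genes per log10 UMIs over 0.8. Scrublet (scanpy 1.11.5) called only 0 and 2 doublets; in place of these calls, the top 2% by doublet score of each library were taken out (308 and 296 cells). Seurat 5.3.0 under R 4.3.3 integrated and clustered the cells (2000 variable genes, 30 principal components, Louvain resolution 0.8) without the members, Cst7 and Itgax. Each cluster was named for the class that had the largest share of raised markers (2-fold over other cells, found in 10% of its cells) where that share reached 50 percent and 3 markers; clusters that passed for 2 classes were called mixed. The naming rule was set with the clusters in view.

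UMIs were summed per library, with exact Poisson, conditional binomial, Clopper-Pearson and Newcombe intervals at 95%; ratios of ratios to P2ry12 and differences of log2 ratios have normal-approximation intervals. UMIs remove PCR copies, but cells of a pool are not replicates, so no test between libraries or cells was made. Thinned shares are expected values over all draws. Members and lists were chosen with earlier results of these data known. The text names all members, the highest and lowest gene of each list, binding partners by name and the 10 most alike genes with at least 100 UMIs, of which some are not reported here; Apoe, Slc2a5, Mbp and Snap25, and the activated-cell ratios of Gna15, Lag3 and Ctss, were added after their values were seen. The ratio between the libraries and its counting interval were tested on simulated Poisson counts, which hold no differences between cells. Clustering, naming, the split and thinning were not tested in this way. Alternatives covered filters, doublets, clustering, scaling, free RNA, shared barcodes and the split. TMM factors came from edgeR 4.0.16, used for these factors alone. Other software was pandas 2.3.3, scipy 1.17.1, matplotlib 3.10.9 and numpy 2.4.6 under Python 3.11.15.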

Additional observations from a re-analysis of the deposited data

Results flagged for a closer look

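The log2 ratio of the tomatidine over the control library was compared between microglia-like cells and 2 other sets, the mixed cluster and border macrophage-like cells. For 5 of the 8 genes it had opposite signs there, with both counting intervals off 0. The share of all genes is not given beside this count, so it has no background. The 15 microglia markers also summed higher in the tomatidine library in the mixed cluster (16388 and 19305 CPM). In microglia-like cells they summed lower (46238 and 41453 CPM). Other classes were not part of the count of 5 genes. Tmem119, for example, had −0.53 (−0.82 to −0.23) in meningeal fibroblast-like and 0.07 (0.02 to 0.13) in microglia-like cells. With 1 library per group, the difference between the sets was not tested. P2ry12 had a log2 ratio of 0.53 in the cluster with microglia and oligodendrocyte markers and −0.24 in microglia-like cells. Csf1r had 0.35 and −0.13, Selplg 0.43 and −0.11, and Gpr34 0.30 and −0.24 in the same sets. Siglech had 0.85 in border macrophage-like cells and −0.19 in microglia-like cells.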

How the results depend on the processing

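The median log2 ratio of tomatidine over control (−0.12) was −0.27 in cells gated on microglia markers, −0.18 with median-of-ratios scaling, −0.02 in the deeper cluster, −0.02 with the mixed cluster included and 0.04 per microglia marker UMI; 0 of 8 genes were past the fold in all 19 alternatives. For the split in the control library, the median (−0.47) was −0.80 at resolution 0.3, −0.82 without integration, −0.79 with the 8 genes and split genes kept in clustering, −0.81 per marker UMI, −0.23 as a mean over cells, −0.66 with 3 or more UMIs, −1.34 with 4 or more (−0.49 in the tomatidine library), −0.23 with Cst7 alone and −0.72 with Itgax alone. In the tomatidine library (−0.60) it was −0.85 in cells of middle depth and −0.99 per marker UMI. The gate on markers gave 0.85 and 1.17, with P2ry12 at 0.64 in control and, in tomatidine cells, P2ry12 at 0.75, Tmem119 at 0.89, Siglech at 1.13 and Selplg at 1.01; this gate took in 866 and 883 cells of other classes beside 844 and 747 microglia-like cells. The control count of 1 gene at least 1.5-fold lower was 0 with all cells kept, the stricter quality thresholds, the gate, TMM, median of ratios, a mean over cells, 1 or more UMIs and 2-fold. It was 5 at resolution 0.3, without integration, with the genes kept, with 3 or more UMIs, at a smaller fold threshold, in the deeper cluster, per marker UMI and with Itgax alone, and 2 without border-marker cells, 4 with the mixed cluster and 6 with 4 or more UMIs. The tomatidine count of 4 was 0 with the gate and at 2-fold, 1 with 1 or more UMIs, 8 per marker UMI and 7 with Cst7 alone. No share of all genes is given beside these alternative counts. The summed level in other classes (0.550% and 0.619%) was 0.640% and 0.705% at resolution 0.3, 0.576% and 0.642% without integration, and 0.601% in the tomatidine library with all cells. Where no construction is named, the cause was not tested. The alternatives of the deeper cluster, the mixed cluster, genes kept in clustering, marker UMIs, 4 or more UMIs and single split genes were chosen after seeing the data. No paired analysis was possible because each group has 1 library. In control, the ratio of activated over other cells was below 0 in 17 of 24 alternatives for Csf1r, 19 for Gpr34, 22 for Sall1 and 23 for each of the other 5 genes. The activated cells number 82 and 70.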
